A study of Mus musculus with 5 samples.

Results

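Mitosis and spindle genes were followed from normal eye tissue to eye tumors of the mouse. The set holds 37 genes chosen by name for their part in mitotic entry, spindle assembly, chromosome attachment, anaphase and cytokinesis, not by measured values. Each was found at its own locus among the 24768 loci of the deposited table. Foxm1 shares its locus with the predicted gene 4933413G19Rik, so its values cover both.

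The wild-type group consists of 2 RNA libraries from the uvea, the pigmented layer of iris, ciliary body and choroid, of adult mice. The tumor group consists of 3 libraries from eye tumors that grew in adults of genotype AAV5-Cre;Lats1/2 fl/fl. In the latter, floxed alleles of Lats1 and Lats2, kinases of the Hippo pathway that restrain the coactivators YAP and TAZ, were cut by Cre recombinase from an adeno-associated virus injected into the mice. The wild-type mice are labelled with neither floxed alleles nor virus, so the effects of deletion, virus and tumor growth cannot be told apart. The labels give no strain, do not name the promoter that drives Cre, and do not say whether libraries within a group are from separate mice. P-values therefore measure only the spread between these libraries, part of which may be technical.

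Library totals ran from 12687703 to 14368272 estimated fragments. Lats1 stood at 7.55 and 8.86 FPKM (fragments scaled for transcript length and depth) in wild type but at 3.43, 3.90 and 2.94 FPKM in tumor libraries 1 to 3, and fell (log2 fold change -1.21, edgeR adjusted p = 0.0115). Lats2 stood at 20.05 and 20.22 FPKM against 12.6, 17.0 and 14.3 FPKM and did not pass (log2 fold change -0.62, edgeR adjusted p = 0.0577). The floxed exons are not named in the labels, and these values cover whole loci. Of 9 melanocyte markers, 8 fell, and their summed level was 6827 and 6603 FPKM in wild type but 34.1, 79.5 and 10.6 FPKM in the tumors, which the series title calls melanoma. Slc45a2 and Oca2 were listed at 0 in tumor library 3, and Sox10 did not pass. The wild-type tissue also carried photoreceptor markers (1445 and 1528 FPKM summed) and markers of the retinal pigment epithelium (14103 and 14191 FPKM summed). In the tumors these sums were 14.8, 15.8 and 10.4 FPKM and 14.0, 71.7 and 13.1 FPKM, and the erythroid sum went from 779.9 and 515.3 FPKM to 66.4, 23.7 and 62.1 FPKM. Best1, of the retinal pigment epithelium list, did not pass and overlapped between the groups. Its mean was 0.667 FPKM in wild type and 0.822 FPKM in the tumors. In bulk tissue, fewer cells of a type and less RNA per cell cannot be told apart.

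Mitosis is started by Cdk1, a kinase that works only when bound to a cyclin, and is carried through by the Polo and Aurora kinases. Kinetochores join chromosomes to spindle microtubules, and the spindle checkpoint holds back anaphase until all are attached. The anaphase-promoting complex then marks cyclin B and securin for destruction, which frees separase to cut the cohesin that joins sister chromatids. Many of these genes are transcribed late in the cell cycle, and resting tissue holds little of their RNA. Their promoters are known for the cell cycle genes homology region (CHR), bound by the MuvB complex together with B-Myb or FoxM1, and for the CCAAT box, bound by NF-Y.

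Most of the set was higher in the tumors. All 37 genes passed the filter on low counts, 31 rose and Pttg1 fell, at an adjusted p under 0.05 in edgeR's quasi-likelihood test over 15241 loci. Over all tested loci, 18.7% rose and 15.4% fell. The median log2 fold change was 2.83 for the set and 0.05 for all tested loci. In FPKM, every tumor library lay above both wild-type libraries for 34 genes, which held for 33.7% of all tested loci. The reverse held for Pttg1 alone among the 37, and for 35.9% of all tested loci. Cdc25b and Bub1b overlapped between the groups.

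Cdk1, Cdc25b, Bub1b, Mad2l1 and Incenp did not pass. DESeq2 called 33 genes higher, the additional ones being Cdk1 and Mad2l1, and Pttg1 lower, where it called 24.2% of 15220 loci higher and 21.5% lower. With either wild-type library left out, edgeR called no locus at all. It then gave an unadjusted p under 0.05 to 4085 loci and 29 of the set without wild-type library 1, and to 3996 loci and 28 of the set without wild-type library 2. In DESeq2 the median log2 fold change of the set was 2.64 without wild-type library 1, against 0.03 for all tested loci. Without wild-type library 2 it was 2.81, against 0.03. Without tumor library 1, edgeR called 4465 of 15053 loci changed in either direction, and 29 genes of the set rose. Aurka (edgeR adjusted p = 0.0604) and Ndc80 (edgeR adjusted p = 0.0560) then no longer passed. Without tumor library 2, edgeR called 6144 of 15062 loci changed in either direction, and 33 genes of the set rose. Cdk1 (edgeR adjusted p = 0.0243) and Mad2l1 (edgeR adjusted p = 0.0234) were then past the threshold.

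**Figure D1:**
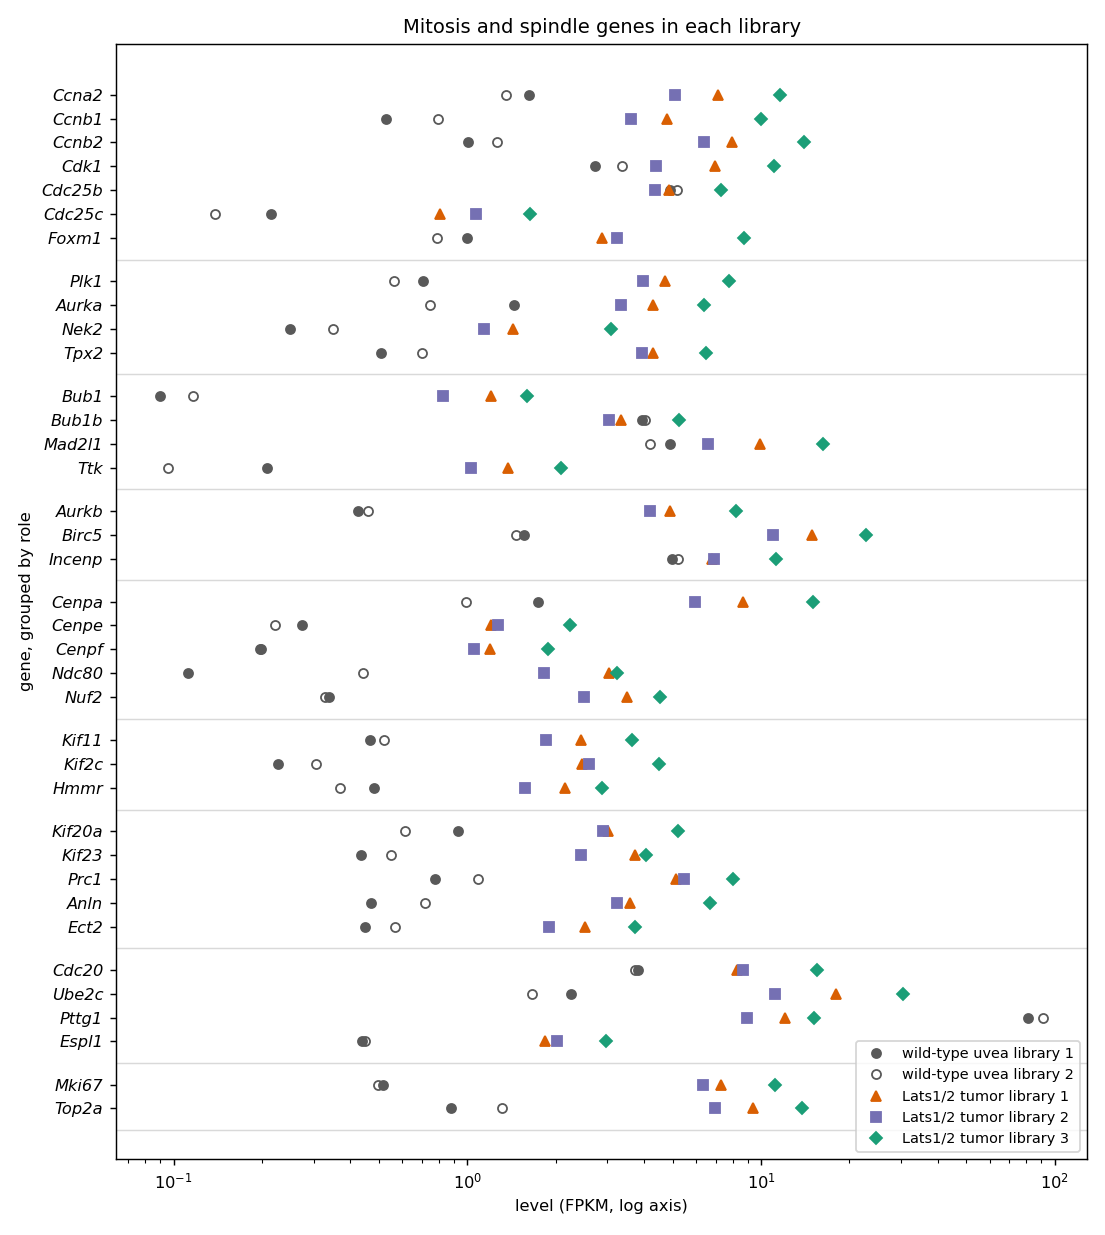
Level of each of the 37 genes in FPKM (log axis) in each library, with genes grouped by role from cyclins at the top to Ki-67 and topoisomerase at the bottom. Circles are the 2 wild-type libraries and coloured symbols the 3 tumor libraries. In 34 genes the coloured symbols lie to the right of both circles, while Pttg1 stands alone with circles at 81.0 and 91.4 FPKM.

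Wild-type levels of most of the set were low and rested on few fragments. The wild-type mean was between 0.103 FPKM (Bub1) and 5.10 FPKM (Incenp) for all genes but Pttg1, and tumor means ran from 1.17 FPKM (Cdc25c) to 19.9 FPKM (Ube2c). In 17 genes, all of which rose, a wild-type library held under 20 fragments, and the fewest was 3, for Ndc80, Ttk and Cdc25c. In the tumors the order of mean levels was headed by Ube2c, Birc5, Pttg1, Mad2l1 and Cdc20, and ended with Cdc25c, Bub1, Cenpf, Ttk and Cenpe. No gene in that order was set apart from its neighbour by more than the range over tumor libraries.

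Promoter sequences are shown because the set moved largely together and its promoters are known for shared motifs. RefSeq windows (build GRCm38.p6, the same assembly as mm10) from 250 bases before to 50 bases from the gene start were given for 30 of the 37 genes. Both strands were searched for the CHR letters TTTGAA or TTCGAA, for CCAAT, and for the E2F-like letters TTTCCCGC or TTTGGCGC. CHR and CCAAT matches did not overlap in any of these windows. The lines below give the 150 bases before the RefSeq start of 6 genes, 5′ to 3′ on the gene's strand, with CHR and CCAAT matches on either strand in capitals (TTCAAA and ATTGG are the letters read on the other strand). Mki67, Top2a, Ube2c and Espl1 rose with both motifs, Cdk1 has both and did not pass, and Birc5 rose with neither.
Mki67 (chr7:135716380-135716529, minus strand): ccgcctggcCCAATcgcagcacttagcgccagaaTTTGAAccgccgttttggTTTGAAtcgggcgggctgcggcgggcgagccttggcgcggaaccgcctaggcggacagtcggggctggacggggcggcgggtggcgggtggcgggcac
Top2a (chr11:99024190-99024339, minus strand): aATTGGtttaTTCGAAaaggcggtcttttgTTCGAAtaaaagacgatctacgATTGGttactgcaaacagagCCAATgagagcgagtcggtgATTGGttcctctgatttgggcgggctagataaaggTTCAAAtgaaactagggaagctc
Ube2c (chr2:164769779-164769928, plus strand): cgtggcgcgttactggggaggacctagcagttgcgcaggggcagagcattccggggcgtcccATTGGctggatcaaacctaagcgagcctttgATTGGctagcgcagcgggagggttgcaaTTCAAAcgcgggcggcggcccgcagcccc
Espl1 (chr15:102296143-102296292, plus strand): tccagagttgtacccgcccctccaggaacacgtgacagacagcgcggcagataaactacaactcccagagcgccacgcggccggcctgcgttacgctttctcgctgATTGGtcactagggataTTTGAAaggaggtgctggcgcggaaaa
Cdk1 (chr10:69352913-69353062, minus strand): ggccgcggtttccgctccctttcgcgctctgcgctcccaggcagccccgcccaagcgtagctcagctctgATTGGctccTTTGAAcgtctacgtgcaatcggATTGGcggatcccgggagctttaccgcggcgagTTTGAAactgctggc
Birc5 (chr11:117849087-117849236, plus strand): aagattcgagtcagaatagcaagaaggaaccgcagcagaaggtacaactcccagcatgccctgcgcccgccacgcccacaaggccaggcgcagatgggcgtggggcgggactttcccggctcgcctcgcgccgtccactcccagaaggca

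CHR letters stood in 23 of 30 windows of the set (76.7%), against 21.7% of 27025 genes with a window. CCAAT was in 23 of 30 (76.7%), against 41.1% of all genes, and both motifs were in 20 of 30 (66.7%), against 9.65%. A CHR match began within 50 bases of the start in 21 of 30 (70.0%), against 6.12% of all genes, while CCAAT matches were commonest in the 100 bases upstream of the start. The E2F-like letters were in 0 of 30 windows, against 1.80% of all genes and 3.13% of tested loci with a single gene name. CHR was in 20 of 25 windows of genes that rose and in 3 of 4 of genes that did not pass. These matches describe letters in a window and were not tested for binding.

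The RefSeq start lies more than 150 bases from the GENCODE gene start for Kif2c, Mad2l1 and Pttg1, a distance chosen after the values were seen. For Pttg1 it lies 270 bases inside the gene, so the absence of matches there says nothing about the sequence upstream of the gene. Among the other 27 genes, CHR was in 22 (81.5%), CCAAT in 23 (85.2%) and both in 20 (74.1%).

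**Figure D2:**
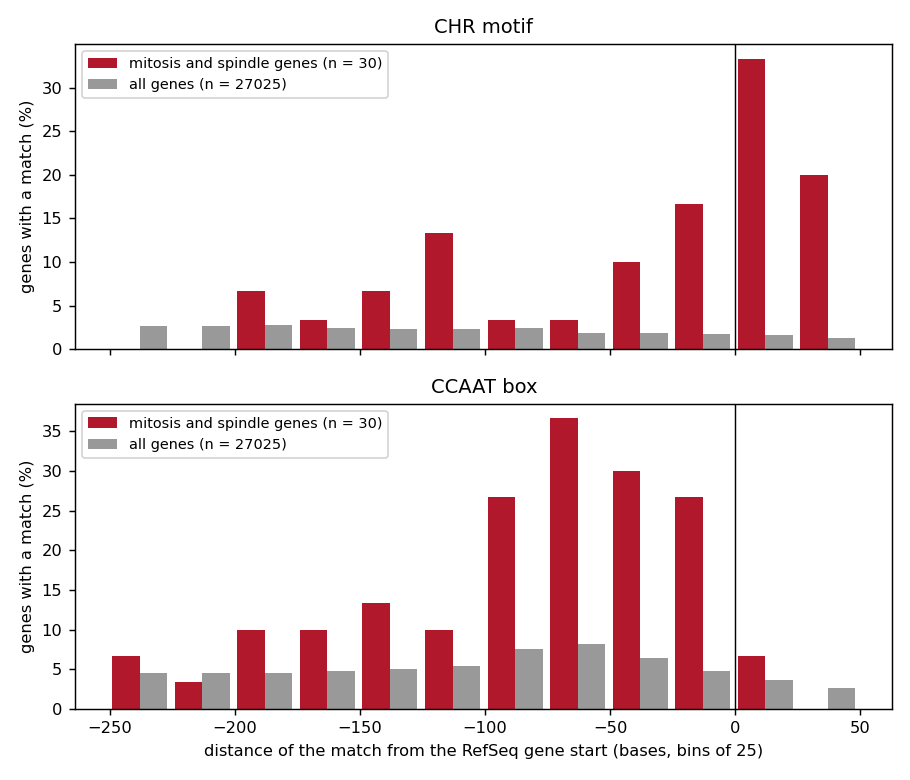
Share of genes with a CHR match (upper panel) or a CCAAT match (lower panel) in each bin of 25 bases, against distance from the RefSeq gene start (line at 0). Red bars are the 30 mitosis and spindle genes with a window and grey bars all 27025 genes; red CHR bars are tallest around the start and red CCAAT bars in the 100 bases upstream of it.

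Of the 7 genes of Cdk1, its cyclins and their regulators, 5 rose: all 3 cyclins, the phosphatase gene Cdc25c and Foxm1. Cdk1 and Cdc25b did not pass. Ccnb2, which encodes a B-type cyclin, stood at 1.00 and 1.26 FPKM in the wild-type libraries, against 7.95, 6.40 and 14.0 FPKM in tumor libraries 1, 2 and 3. It rose by 3.10 ± 0.48 (log2 fold change ± SE, edgeR adjusted p = 0.0132). Ccnb1, the other B-type cyclin, went from 0.529 and 0.798 FPKM to 4.79, 3.61 and 10.01 FPKM, a rise of 3.25 ± 0.61 (log2, edgeR adjusted p = 0.0196). The groups were apart for each, with tumor library 3 far above the other tumors. Ccna2, the cyclin that acts from DNA replication into early mitosis, rose from a mean of 1.49 to 7.95 FPKM (log2 fold change 2.46).

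Cdk1 itself stood at 2.72 and 3.35 FPKM in wild type, against 6.98, 4.40 and 11.1 FPKM in the tumors (log2 fold change 1.35 ± 0.45, edgeR adjusted p = 0.0727). Every tumor library lay above wild type, tumor library 2 by the least. The ratio of Ccnb1 to Cdk1 in FPKM was 0.195 and 0.238 in wild type and 0.687, 0.821 and 0.903 in the tumors, without overlap. Cdc25 phosphatases strip inhibitory phosphates from Cdk1. Cdc25b had 4.91 and 5.19 FPKM in wild type, against 4.85, 4.36 and 7.29 FPKM in the tumors (log2 fold change 0.07 ± 0.30, edgeR adjusted p = 0.862). Only tumor library 3 lay above the wild-type pair. Cdc25c, by contrast, rose from a mean of 0.176 to 1.17 FPKM (log2 fold change 2.74), from 5 and 3 fragments in wild type to 20, 26 and 38 in the tumors. Foxm1, the transcription factor that drives many genes of late cell cycle, rose from a mean of 0.893 to 4.96 FPKM (log2 fold change 2.56) and had the widest spread of the 37 in the tumors, at 2.88, 3.23 and 8.77 FPKM.

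Each of the 4 genes for mitotic kinases and their activator rose. Tpx2, which activates Aurora A on the spindle, had the smallest p in the group, with 0.507 and 0.699 FPKM in wild type and 4.28, 3.93 and 6.47 FPKM in the tumors (log2 fold change 3.11 ± 0.36, edgeR adjusted p = 0.00799). Plk1, the Polo kinase of mitotic entry and spindle assembly, went from 0.707 and 0.562 FPKM to 4.71, 3.96 and 7.76 FPKM (3.15 ± 0.45 on the log2 scale, edgeR adjusted p = 0.0110). Both genes kept the groups well apart. Aurka, the Aurora kinase of spindle poles, rose least, from 1.44 and 0.745 FPKM to 4.28, 3.33 and 6.40 FPKM (2.14 ± 0.50 on the log2 scale, edgeR adjusted p = 0.0321), and its wild-type libraries lay well apart. Nek2, a kinase that splits centrosomes, rose from a mean of 0.298 to 1.88 FPKM (log2 fold change 2.70).

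In the spindle checkpoint, 2 of 4 genes rose. Bub1, a checkpoint kinase of the kinetochore, had the smallest p, with 0.0900 and 0.116 FPKM in wild type (5 and 6 fragments) and 1.21, 0.827 and 1.59 FPKM in the tumors (log2 fold change 3.57 ± 0.50, edgeR adjusted p = 0.0105). Ttk, the kinase that starts the checkpoint signal, rose from a mean of 0.152 to 1.497 FPKM (log2 fold change 3.42). Bub1b, which encodes BubR1, a subunit of the checkpoint complex that blocks Cdc20, stood at 3.92 and 4.02 FPKM in wild type, against 3.34, 3.04 and 5.26 FPKM in the tumors. Tumor libraries 1 and 2 lay below the wild-type pair and tumor library 3 above it. The fit on fragments gave 0.33 ± 0.38 (log2 fold change, edgeR adjusted p = 0.521), whereas the FPKM mean was 3.88 in the tumors and 3.97 in wild type, so no direction can be given.

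Mad2l1, which encodes the checkpoint protein Mad2, had 4.89 and 4.18 FPKM in wild type, against 9.95, 6.62 and 16.2 FPKM in the tumors (log2 fold change 1.31 ± 0.42, edgeR adjusted p = 0.0670). All tumors lay above wild type. The ratio of Bub1 to its paralog Bub1b in FPKM was 0.0229 and 0.0289 in wild type and 0.362, 0.272 and 0.303 in the tumors, or 12.0-fold higher. The size of this change depends on the measure, since FPKM and fragments differed in sign for Bub1b. Fitted on fragments, the log2 fold changes were 3.57 for Bub1 and 0.33 for Bub1b. With 2 against 3 libraries an exact two-sided permutation test of such a ratio cannot give a p below 0.2, so ratios are given as descriptions.

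The chromosomal passenger complex corrects faulty attachments and later moves to the midzone. Its genes did not change alike. Aurkb, its kinase Aurora B, had 0.425 and 0.458 FPKM in wild type and 4.88, 4.20 and 8.21 FPKM in the tumors, and rose by 3.73 ± 0.47 (log2 fold change, edgeR adjusted p = 0.00869). Birc5, which encodes survivin and whose upstream bases above hold neither motif, rose from a mean of 1.51 to 16.2 FPKM (log2 fold change 3.57) and was second only to Ube2c in tumor level. Incenp, the scaffold of the complex, stood at 4.98 and 5.22 FPKM in wild type, against 6.83, 6.93 and 11.2 FPKM in the tumors (0.77 ± 0.29 on the log2 scale, edgeR adjusted p = 0.0977). All tumors were above wild type, but tumor libraries 1 and 2 only slightly. In FPKM, Incenp exceeded Aurkb and Birc5 in each wild-type library: Aurkb was 0.0852 and 0.0878 of it there and 0.715, 0.606 and 0.731 of it in the tumors. Birc5 went from 0.312 and 0.281 of Incenp to 2.19, 1.59 and 2.03 times its level.

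All 5 genes of the centromere and kinetochore rose. Nuf2, a subunit of the Ndc80 complex that grips microtubules, had the smallest p, with 0.338 and 0.328 FPKM in wild type and 3.50, 2.49 and 4.52 FPKM in the tumors (log2 fold change 3.45 ± 0.43, edgeR adjusted p = 0.00855). Its partner Ndc80 rose from a mean of 0.277 to 2.69 FPKM (log2 fold change 3.32), but its wild-type libraries, at 3 and 11 fragments, differed widely. The ratio of Nuf2 to Ndc80 overlapped between the groups. Cenpe, the kinesin that moves chromosomes to the spindle equator, had the smallest change in the group, from 0.273 and 0.221 FPKM to 1.21, 1.27 and 2.23 FPKM (2.71 ± 0.42 on the log2 scale, edgeR adjusted p = 0.0135). Cenpa, the histone variant of centromeres, rose from a mean of 1.37 to 9.89 FPKM (log2 fold change 2.89). Cenpf, a large protein of the outer kinetochore, rose from 0.198 to 1.38 FPKM (log2 fold change 2.84).

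Spindle motor and microtubule genes rose in 3 of 3 cases. Kif2c, the kinesin that shortens microtubules at kinetochores, had both the smallest p and the greatest change of the group, from 0.227 and 0.305 FPKM to 2.46, 2.60 and 4.51 FPKM (log2 fold change 3.62 ± 0.48, edgeR adjusted p = 0.00952). Hmmr, a microtubule protein of spindle poles, changed least, from 0.481 and 0.367 FPKM to 2.16, 1.57 and 2.87 FPKM (2.41 ± 0.41 on the log2 scale, edgeR adjusted p = 0.0161). The lowest tumor was still well above the wild-type pair in each. Kif11, the kinesin that pushes spindle poles apart, rose from a mean of 0.494 to 2.64 FPKM (log2 fold change 2.46).

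Genes of the spindle midzone and cytokinesis rose in 5 of 5 cases and had changes close to one another, between 2.31 and 2.95 on the log2 scale. Prc1, which bundles the antiparallel microtubules of the midzone, had the greatest change and smallest p, from 0.778 and 1.09 FPKM to 5.12, 5.47 and 8.002 FPKM (2.95 ± 0.37, edgeR adjusted p = 0.00891). Kif20a, a midzone kinesin, changed least, from 0.926 and 0.613 FPKM to 3.02, 2.89 and 5.22 FPKM (2.31 ± 0.43, edgeR adjusted p = 0.0195). Tumor libraries 1 and 2 were close in both genes and tumor library 3 was higher. Kif23, a subunit of centralspindlin, rose from a mean of 0.493 to 3.41 FPKM (log2 fold change 2.83), and Ect2, the exchange factor that centralspindlin recruits to switch on RhoA, from 0.507 to 2.71 FPKM (log2 fold change 2.46). Anln, the scaffold anillin of the contractile ring, rose from 0.593 to 4.50 FPKM (log2 fold change 2.88).

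The genes of anaphase and protein destruction held the one fall of the set. Pttg1, which encodes securin, the inhibitor of separase (chr11:43420250-43426251, minus strand), stood at 81.0 and 91.4 FPKM in wild type, against 12.1, 8.99 and 15.1 FPKM in the tumors. The mean was 86.2 ± 7.38 FPKM (SD, n = 2) in wild type and 12.1 ± 3.08 FPKM (SD, n = 3) in the tumors, 7.14-fold lower, with a log2 fold change of -2.73 ± 0.27 (edgeR adjusted p = 0.00618). It rested on 585 and 615 fragments in wild type and 96, 69 and 115 in the tumors. Pttg1 was by far the highest of the 37 in wild type, where it made up 63.9% and 66.8% of their summed FPKM, against 4.88% to 6.30% in the tumors.

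Espl1, which encodes separase itself, rose from a mean of 0.444 to 2.28 FPKM (log2 fold change 2.40). The ratio of Espl1 to Pttg1 was 0.00543 and 0.00491 in wild type and 0.153, 0.224 and 0.196 in the tumors, 36.5-fold higher. Even so, Pttg1 remained above Espl1 in every library. Because the labels give no strain for either group, genetic background and tumor state cannot be told apart in the fall of Pttg1 or in this ratio, and the level of Pttg1 is known to differ between mouse strains. The summed levels of markers of pigment cells, photoreceptors, retinal pigment epithelium and red blood cells were lower along with Pttg1. The part of these cells in its fall was not tested. Ube2c, the ubiquitin-conjugating enzyme of the anaphase-promoting complex, had the greatest change of the group, from 2.26 and 1.66 FPKM to 17.9, 11.1 and 30.5 FPKM (log2 fold change 3.38 ± 0.57, edgeR adjusted p = 0.0157). Its tumor level was the highest of the set, with tumor library 3 well above the others. The gene overlaps Tnnc2, a skeletal muscle marker on the opposite strand. Tnnc2 held 977 and 884 fragments in wild type and 12058, 712 and 491 in tumor libraries 1, 2 and 3. Whether fragments of Tnnc2 entered the count of Ube2c was not tested. Cdc20, the activator of that complex and the target of the checkpoint, rose from a mean of 3.76 to 10.8 FPKM (log2 fold change 1.57), the smallest rise among those that passed.

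Mki67 and Top2a rose with many fragments behind them. Mki67, which encodes Ki-67, the coat of mitotic chromosomes and a common label of dividing cells, stood at 0.517 and 0.496 FPKM in wild type (56 and 54 fragments) and at 7.30, 6.34 and 11.2 FPKM in the tumors (819, 734 and 1238 fragments). It had the greatest change and the smallest p of the 37, with a log2 fold change of 4.04 ± 0.35 (edgeR adjusted p = 0.00509), or 16.3-fold in mean FPKM. Top2a, the topoisomerase that untangles and compacts chromosomes, stood at 0.882 and 1.32 FPKM in wild type, against 9.40, 6.96 and 13.8 FPKM in the tumors (log2 fold change 3.23 ± 0.39, edgeR adjusted p = 0.00833). In each, the lowest tumor was several times the higher wild-type library.

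**Figure D3:**
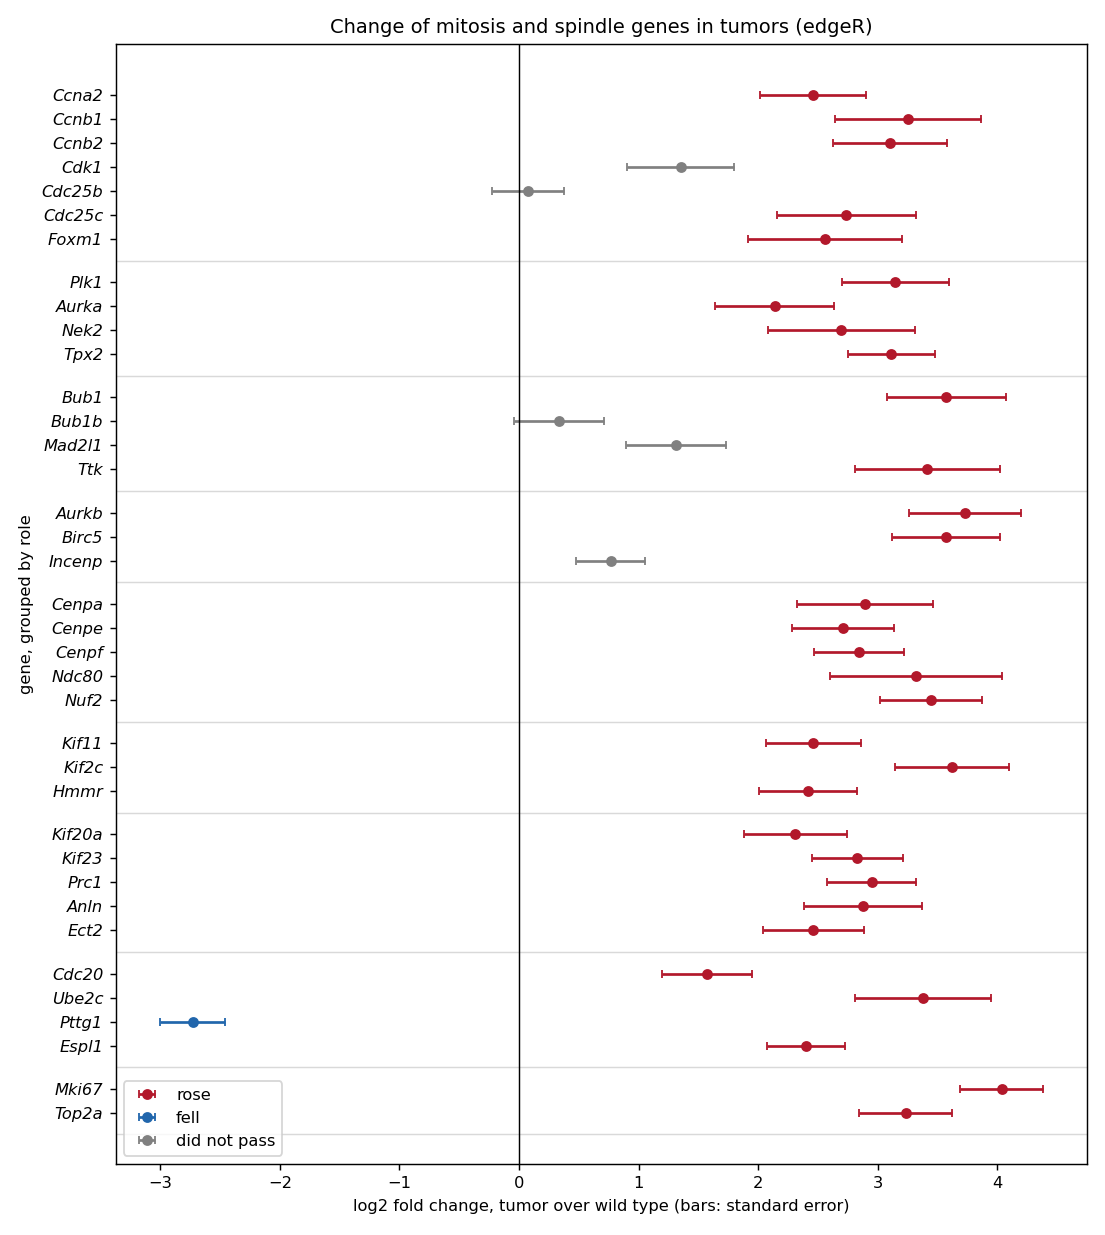
Log2 fold change of each gene, tumor over wild type, from edgeR, with bars for 1 standard error; red points rose, the blue point fell and grey points did not pass. Red points lie between 1.57 (Cdc20) and 4.04 (Mki67), the blue point, Pttg1, lies at -2.73, and the 5 grey points lie between 0.07 and 1.35.

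The 6 genes that did not rise were among the 7 with the most RNA in wild-type tissue. Split at a wild-type mean of 2.5 FPKM, a value chosen after the levels were seen, the 30 genes at or below it all rose, by 2.14 to 4.04 on the log2 scale. The 7 above it were Cdc20, which rose, Pttg1, which fell, and the 5 that did not pass. Over all tested loci, 27.2% of 3763 at or below that level rose and 15.9% of 11478 above it. The split and the fold change share the wild-type value, so the split is a description only.

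The 3 tumors differed in how much of these RNAs they held. Tumor library 3 was the highest of the tumors in FPKM for 37 of 37 genes, against 40.5% of all tested loci. Tumor library 2 was the lowest for 29 genes and tumor library 1 for 8. The ratio of the highest to the lowest tumor had a median of 1.93 and ran from 1.56 (Prc1) to 3.05 (Foxm1). Summed over the set without Pttg1, FPKM was 45.8 and 45.3 in wild type and 180.0, 143.8 and 295.1 in tumor libraries 1, 2 and 3. In log2 CPM (fragment counts scaled by library size and TMM), the 37 genes were above wild type by a median of 2.39, 2.24 and 3.21 in these tumors. Pttg1 followed the same order among the tumors as most genes that rose, at a level far under wild type in each.

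**Figure D4:**
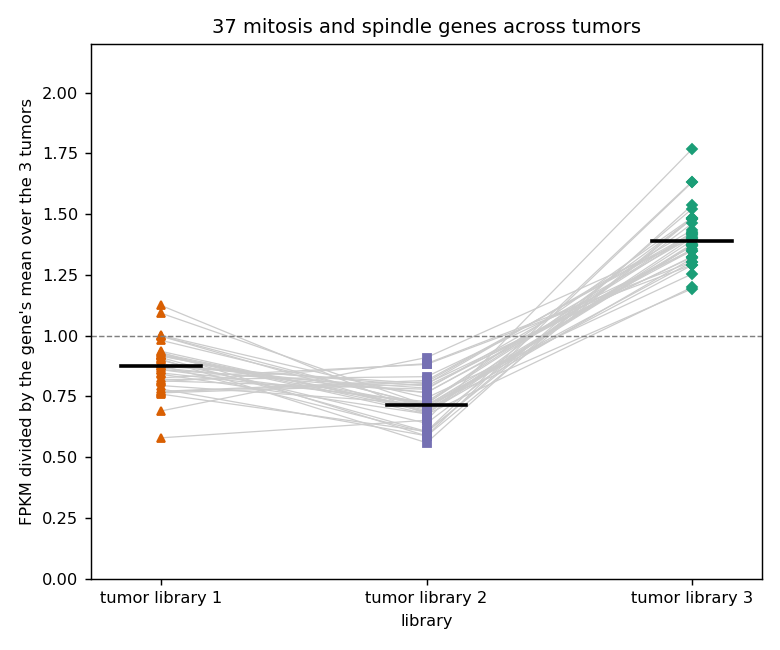
FPKM of each of the 37 genes in each tumor library, divided by that gene's mean over the 3 tumors (dashed line at 1); thin lines join the values of a gene and black bars are medians. Every gene has its highest point in tumor library 3, and 29 have their lowest in tumor library 2.

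Markers of immune cells and collagen genes moved with these genes. Of 10 macrophage and monocyte markers, 8 rose and Cd68 and Csf1r did not pass; their summed level was 879 and 869 FPKM in wild type and 6800, 4318 and 14131 FPKM in tumor libraries 1, 2 and 3, and none was at 0 in any library. Lymphocyte markers (T, NK and B cell) rose in 8 of 11 tested cases, and the list's sum went from 6.81 and 6.54 FPKM to 48.6, 40.3 and 100.6 FPKM, with Cd3d at 0 in wild-type library 2. Fibroblast markers, of which 3 of 7 rose (Col1a1, Col1a2 and Col3a1) and Fap fell, summed to 1758 and 1958 FPKM in wild type and 3284, 2318 and 4168 FPKM in the tumors, with none at 0. The sums of these 3 lists ranked the tumors in the order of most mitosis genes. Within the fibroblast list, however, Dcn, Lum and Fap had a different order, highest in tumor library 1 and lowest in tumor library 3. Dcn, which did not pass, went from 1206 and 1373 FPKM in wild type to 808.5, 490.7 and 447.9 FPKM, and Lum, which did not pass either, from 127.9 and 143.9 FPKM to 210.9, 131.2 and 25.5 FPKM. The sums of skeletal muscle, endothelial and epithelial markers did not follow the order of most mitosis genes. Skeletal muscle markers summed to 8542 FPKM in tumor library 1 against 496 and 516 FPKM in the other tumors. In tumor libraries 1, 2 and 3, endothelial markers summed to 154.3, 110.9 and 77.8 FPKM. Epithelial markers summed to 118.8, 707.1 and 197.6 FPKM. The melanocyte, photoreceptor, retinal pigment epithelium and erythroid sums given above did not follow that order either. The part of these cell types in the rise of the mitosis genes was not tested.

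A further 140 genes of mitosis gave context. They were listed by complex and not by how they moved, though with earlier results of these data known. Of these, 71 rose and 6 fell, where 18.7% and 15.4% of all tested loci did, with a median log2 fold change of 1.00. DESeq2 called 81 higher and 11 lower, where it called 24.2% and 21.5% of all loci. With wild-type library 1 or 2 left out, edgeR called no locus at all.

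Rises were many among motors, kinetochore proteins and condensin. Of 27 other spindle, centrosome and cytokinesis genes, 22 rose, with the smallest p for Aspm, Kif20b and Kif15 (log2 fold changes 3.34, 3.11 and 3.46), and Spag5, which encodes the spindle protein astrin, fell from 8.21 and 6.85 FPKM to 1.80, 1.67 and 2.38 FPKM (log2 fold change -1.90 ± 0.25, edgeR adjusted p = 0.00909). Of 35 other centromere, kinetochore and checkpoint genes, 18 rose and none fell. Cdca8, the borealin subunit of the passenger complex, rose by 3.48 on the log2 scale and Kntc1 by 3.25. Condensin, which compacts chromosomes, had 5 of 8 genes higher, among them Smc2 (2.30), Smc4 (2.52) and Ncapg (3.90), as log2 fold changes.

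Of 15 genes of the anaphase-promoting complex and its activator Fzr1, 3 rose (Cdc16, Anapc15 and Anapc10, with log2 fold changes of 0.61, 0.94 and 0.92) and none fell. The 3 that rose are a share near the 18.7% of all tested loci. In FPKM, Anapc10 overlapped between the groups, with tumor library 2 at 18.5 against 24.0 and 21.2 in wild type. Cohesin and its regulators had 6 of 14 genes higher. These included the loader Nipbl and the regulator Pds5b at 0.73 and 0.68, and Cdca5, which encodes sororin, at 3.21. Whether these lists differ from one another was not tested.

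**Figure D5:**
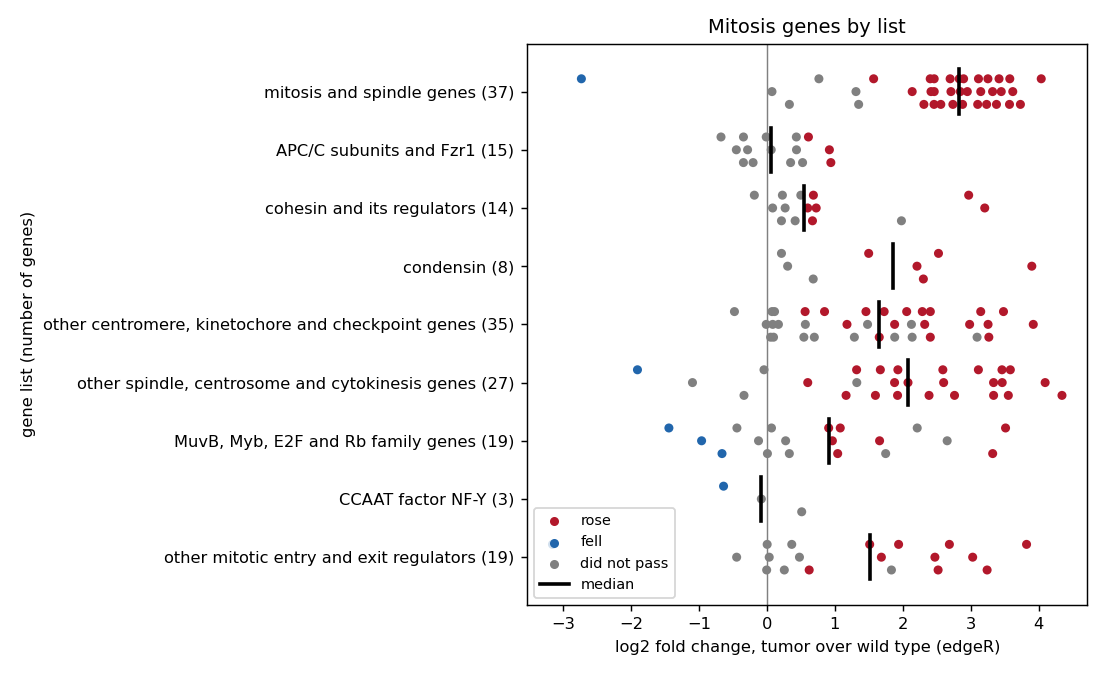
Log2 fold changes, tumor over wild type (edgeR), of the 37 mitosis and spindle genes and of the 8 other lists of mitosis genes, with the number of genes in brackets; each point is a gene, coloured by its call, and black bars are medians. The median is 2.83 for the 37 genes, 2.08 for other spindle, centrosome and cytokinesis genes and 0.06 for the anaphase-promoting complex.

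Among the transcription factors that act at cell cycle promoters, 7 of 19 MuvB, Myb, E2F and Rb family genes rose and 3 fell, the latter a share near the 15.4% of all tested loci. E2f2 and E2f8 rose by 3.51 and 3.32 on the log2 scale and Rb1 by 1.08. Lin52, a MuvB subunit, fell from 9.69 and 11.7 FPKM to 4.71, 4.11 and 2.55 FPKM (log2 fold change -1.44, edgeR adjusted p = 0.0296), and Tfdp2 (-0.96) and E2f4 (-0.66) fell as well. The E2f4 locus also carries the name Elmo3, so its value covers both. Of the 3 NF-Y subunits of the CCAAT factor, Nfyc fell (log2 fold change -0.64, edgeR adjusted p = 0.0224) and the other two did not pass. Of 19 other regulators of mitotic entry and exit, 10 rose, among them Gtse1 (3.24), Cks1b (1.68) and Pbk (3.82). Cdc14a, a phosphatase of the family that opposes Cdk1, fell from 23.9 and 25.8 FPKM to 2.80, 3.39 and 1.99 FPKM, a log2 fold change of -3.15 ± 0.25 (edgeR adjusted p = 0.00460), the greatest fall among the 140 genes.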

How the data were processed

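RNA was measured in 5 libraries. Per the submitters' processing notes, the authors used TopHat2 2.0.9, Cufflinks 2.2.1 and Cuffdiff with build mm10. Annotation, filters and strandedness of counting were not given in the sources used here, so overlapping and antisense genes cannot be told apart. Per the file headers, the authors deposited an estimated count of fragments, not scaled, and an FPKM for each locus and library. The table marks 3 values as failed, and these were kept. The FPKM per group matched the mean of replicates within 1% at 100% of loci above 1 FPKM and was not used.

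Counts were rounded to whole numbers (96.8% to 97.1% were whole). The 1627 loci without a gene name, with 1.52% to 4.37% of fragments per library, were left out. The other 23141 entered edgeR 4.0.16 (R 4.3.3) with filterByExpr (minimum count 10), TMM and the quasi-likelihood F-test, two-sided, with Benjamini-Hochberg adjustment over all tested loci. "Rose" and "fell" mean an adjusted p under 0.05; the SE of a log2 fold change is its size over the root of F. Scripts were tested on simulated data. Libraries of a group differed by more than sampling noise (chi-square per degree of freedom 5.56 in wild type and at least 107.8 in tumors), and all were kept. Replicate numbers in the table and the labels start differently, so they only name libraries. Alternatives used DESeq2 1.42.0, limma 3.58.1 on log2(FPKM + 1) and log2(FPKM + 0.1), other scalings and filters, a replicate block, and each library left out.

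Genes and lists were chosen with earlier results of these data known. Values in every library are given, within each role, for the gene with the smallest p, those with the greatest and smallest change, and each that did not pass; others get means and calls. From the other lists, up to 3 changed genes with the smallest p in each direction are named; 1 of these is not reported here. Gene coordinates are from GENCODE M21 and promoter windows from RefSeq, matched by symbol. Figures were drawn with matplotlib 3.10.9.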

Additional observations from a re-analysis of the deposited data

How the results depend on the processing

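The set's direction held: 34 to 36 of its 37 genes had a positive log2 fold change under all alternatives run on counts, and 35 under limma; with loci of 1 gene name only, Foxm1 is left out. Leaving out each library in turn gave 0 to 33 genes higher, 0 to 1 lower, 0 to 6144 changed loci, and 0 to 73 other mitosis genes higher and 0 to 7 lower, with the zeros coming from leaving out wild-type library 1 or 2, where the other library is assumed to vary like the tumors. DESeq2 without wild-type library 1 or 2, chosen after seeing the data, changed 2843 and 2798 loci, with 29 and 34 other mitosis genes higher and 2 and 2 lower. DESeq2 over all libraries gave 11 of these lower, against 6. The median log2 fold change of the set was 2.83 in edgeR, 2.27 by limma on log2(FPKM + 0.1) and 1.42 on log2(FPKM + 1), with or without a filter on low values, a scale that understates changes of low genes. Limma on log2(FPKM + 1) without a filter called 21 genes of the set and 34 other mitosis genes higher. It called 4257 of 23141 loci changed in either direction. The replicate block gave 3067 changed loci, 26 genes of the set higher, and 28 other mitosis genes higher and 3 lower. Deviations from the group mean correlated at 0.013 and 0.027 for same-numbered libraries, and at 0.015 for wild-type library 1 with tumor library 3. With 2 wild-type libraries these deviations mirror each other, so the correlations cannot decide whether libraries are paired. Depth limits the wild-type values: 17 genes of the set had under 20 fragments in a wild-type library, and Ndc80, Ttk and Cdc25c as few as 3.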

Other observations

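The other mitosis genes were divided by wild-type level in the same way as the 37. Of 68 genes with a wild-type mean at or below 2.5 FPKM, 53 rose and none fell, with a median log2 fold change of 2.31. Of 72 above it, 18 rose and 6 fell, with a median of 0.19. Spag5 and Cdc14a, like Pttg1, fell from levels above it. This split, too, was chosen after the levels were seen and shares the wild-type value with the fold change.

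CHR letters were in the windows of 32 of 57 other mitosis genes that rose (56.1%) and of 23 of 60 that did not (38.3%). Among tested loci with a single gene name, the shares were 19.1% of 1964 that rose and 15.4% of 8530 that did not. CCAAT was in 59.6% and 58.3% of the same windows of other mitosis genes, so that motif's share was nearly alike in genes that rose and in those that did not. The E2F-like letters were in 18 of 117 windows of other mitosis genes (15.4%), against 1.80% of all genes and 3.13% of tested single-name loci. They were in 0 of the 30 windows of the set, a share near that of all genes. These shares are descriptions with no test.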
